A study of Mus musculus with 2 samples.

Results

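The adaptors, receptors and kinase of one immune signalling route were followed at transcript level in HSC (hematopoietic stem cells, from which all blood cell types descend) of the mouse. The group held 10 genes, namely the adaptors Tyrobp and Fcer1g, the receptors Trem1, Trem3, Clec5a, Clec4e, Clec4d, Clec7a and Clec12a, and the kinase Syk, out of 18193 genes named on the array. They were chosen by name, with earlier results of these arrays known, as the probe sets whose platform annotation names a single one of these genes. This gave 14 probe sets out of 45037, covering 9 of the 10 genes. Clec12a was named on no probe set in the annotation used here and was not analysed here. The study measured 2 Affymetrix 3' expression arrays, 1 with RNA of cells labelled SIRT6 knockout and 1 with RNA of wild type cells, both labelled HSC from mice aged 3 months. How the Sirt6 allele was disrupted, how the cells were sorted and how many animals were pooled is not stated in the labels. With 1 array per genotype there is no replicate, so every value below describes these 2 RNA samples, and no test, SD between samples or p-value was computed.

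Immunoreceptor tyrosine-based activation motifs (ITAMs) are paired tyrosine motifs in the cytoplasmic tails of receptor chains. Tyrobp (also called DAP12) and Fcer1g (the Fc receptor gamma chain) are small transmembrane adaptors that carry an ITAM and lend it to receptors without a signalling tail of their own. Src family kinases phosphorylate the ITAM, Syk docks on it, and signalling then passes through adaptors such as Card9 or through phospholipase C. The Trem and C-type lectin receptors that use this route are best known from neutrophils, monocytes and macrophages, where several of them sense microbial sugars and lipids or material from dying cells.

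The values are MAS5 signals, a linear intensity per probe set that the software summarises and scales on each array separately. The floor, under which a signal was treated as not measured, was the median signal over all probe sets (60.5 units), and a value under it was raised to it. Both arrays were on a common scale, with median signals of 60.7 on the knockout-labelled array, against 60.8 in wild type. The single Sirt6 probe set read 174 on the knockout-labelled array, against 124 in wild type (log2 ratio 0.49). The targeted transcript was therefore not lower there, and which part of the transcript that probe set covers relative to the disrupted part is not stated. All directions below rest on the label of that array. Of 16 HSC marker genes, 14 had a named probe set and all 14 were above the floor on at least 1 array. This does not tell cell types apart. Of 14 neutrophil and granulocyte progenitor markers with a named probe set, 13 passed the floor too.

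The start regions of several members are printed here because Trem1, Clec4d and Clec4e read higher on the same array, with Clec5a (near the floor) and Fcer1g (level) beside them. Those of Clec7a, Clec12a and Syk are not printed. RefSeq start regions (GRCm38.p6, from 250 bases before to 50 bases after a gene's start, read 5′ to 3′ on the gene's strand) were given for 8 of the 10 genes, all but Tyrobp and Trem3, in 10 windows, since Clec7a and Syk had 2 each. Capitals mark matches on either strand to GAGGAA, the core bound by Ets factors such as PU.1 (TTCCTC on the other strand), or to TTGCNNAA, a C/EBP-type motif (TTNNGCAA on the other strand). The 2 motifs overlapped each other in none of the 5 windows printed.
Trem1 (chr17:48232489-48232788, plus strand): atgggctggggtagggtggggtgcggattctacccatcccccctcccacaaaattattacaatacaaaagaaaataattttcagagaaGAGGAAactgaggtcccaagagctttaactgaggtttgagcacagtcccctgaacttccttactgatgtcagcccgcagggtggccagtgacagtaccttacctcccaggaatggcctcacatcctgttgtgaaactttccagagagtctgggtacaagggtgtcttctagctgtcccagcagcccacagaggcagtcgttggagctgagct
Clec4d (chr6:123261857-123262156, plus strand): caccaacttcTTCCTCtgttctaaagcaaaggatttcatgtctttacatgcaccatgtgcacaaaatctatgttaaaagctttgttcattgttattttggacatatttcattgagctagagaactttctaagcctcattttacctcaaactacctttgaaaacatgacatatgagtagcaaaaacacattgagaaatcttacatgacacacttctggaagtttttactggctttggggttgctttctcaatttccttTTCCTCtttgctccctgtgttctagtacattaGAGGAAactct
Clec4e (chr6:123289822-123290121, minus strand): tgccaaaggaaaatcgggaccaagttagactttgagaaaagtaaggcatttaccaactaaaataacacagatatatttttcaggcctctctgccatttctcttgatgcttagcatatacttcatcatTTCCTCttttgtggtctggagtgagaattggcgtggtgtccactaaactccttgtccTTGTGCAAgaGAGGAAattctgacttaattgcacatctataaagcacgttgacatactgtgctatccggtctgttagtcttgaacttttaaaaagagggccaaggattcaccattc
Clec5a (chr6:40585756-40586055, minus strand): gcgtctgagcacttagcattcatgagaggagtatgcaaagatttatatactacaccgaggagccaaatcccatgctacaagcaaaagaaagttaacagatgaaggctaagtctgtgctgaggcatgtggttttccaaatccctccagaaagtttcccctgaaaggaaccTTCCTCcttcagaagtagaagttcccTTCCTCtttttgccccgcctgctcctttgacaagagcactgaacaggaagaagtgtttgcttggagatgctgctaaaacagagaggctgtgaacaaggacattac
Fcer1g (chr1:171234300-171234599, minus strand): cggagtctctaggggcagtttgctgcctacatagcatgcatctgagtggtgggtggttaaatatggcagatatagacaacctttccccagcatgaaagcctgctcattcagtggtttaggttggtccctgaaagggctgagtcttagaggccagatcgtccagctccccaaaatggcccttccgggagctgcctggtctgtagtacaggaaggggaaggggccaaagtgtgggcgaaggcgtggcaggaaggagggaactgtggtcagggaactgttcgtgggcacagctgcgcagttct

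At least 1 GAGGAA match lay in 8 of the 10 windows, which belong to 7 genes, against 28.3% of all 32851 start regions of this length. Both Clec7a windows had a match and share most of their sequence. Fcer1g and the upstream Syk window had no match, while the other Syk window had 1, beginning 9 bases before the start. Matches thus also lay in members that read level (Clec7a) or differed little by their bright probe sets (Syk). The Clec4e window held a GAGGAA on each strand, the nearer 56 bases before the start, with a TTGCNNAA match beginning 66 bases before it. The Clec4d window had 3 GAGGAA matches, 2 of them just past the start, the Clec5a window 2 and the Trem1 window 1, beginning 162 bases before the start. TTGCNNAA occurred in 2 of the 10 windows, those of Clec4e and Clec12a, against 10.8% of all start regions. A match is a string of letters and not evidence of binding, and these arrays measured no binding.

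The ITAM adaptors differed from each other. Tyrobp, the adaptor of Trem1, Trem3 and Clec5a, read 1497 on the knockout-labelled array, against 845 in wild type, giving a ratio of 1.77 (log2 0.83). Fcer1g, the adaptor of Clec4e, Clec4d and several Fc receptors, read 508 on the knockout-labelled array, against 456 in wild type, giving a ratio of 1.11 (log2 0.16). Each adaptor had 1 probe set, so neither ratio could be compared with another probe set of its gene. Above a mean signal of 64, ratios scattered more among dimmer probe sets (SD of the log2 ratio 0.36 from 64 to 128 and 0.21 from 1024 to 2048), so members were read beside probe sets of like brightness. Of the 1941 measured probe sets as bright as Tyrobp (mean signal from 1024 to 2048), 0.824% were at least 1.5-fold higher on the knockout-labelled array, and their log2 ratios ran from -0.25 at percentile 5 to 0.25 at percentile 95. The Tyrobp ratio lay beyond that range and the Fcer1g ratio lay inside the range of its own brightness class (-0.50 to 0.35 over 4403 probe sets).

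**Figure D1:**
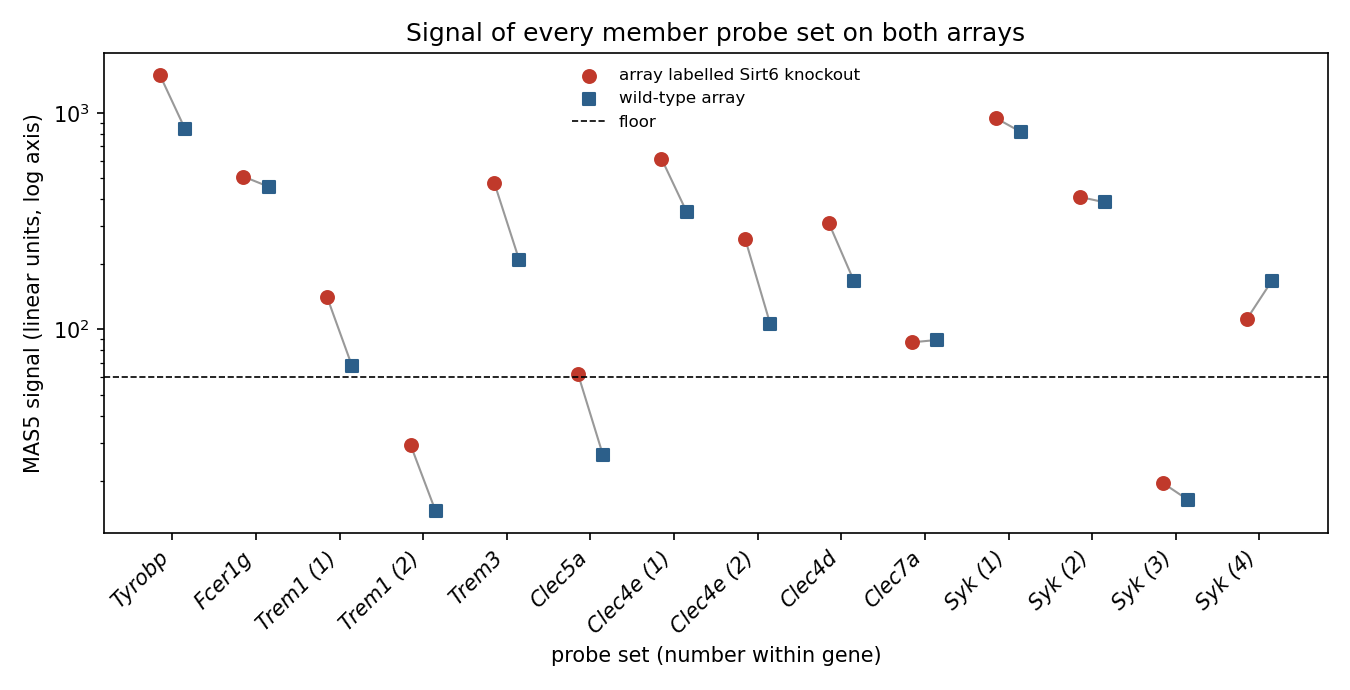
MAS5 signal (log axis) of each of the 14 probe sets of the members, with the array labelled Sirt6 knockout as circles and the wild-type array as squares, 1 array each and therefore no error bars. The circle lies above the square in 12 of the 14 probe sets, and the exceptions are Clec7a and the Syk probe set numbered 4, while 2 probe sets lie under the dashed floor on both arrays.

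Both Trem receptors read more than 2-fold higher on the knockout-labelled array. Trem3, an activating receptor of mouse myeloid cells that pairs with Tyrobp, read 475.5 on the knockout-labelled array, against 208 in wild type, giving a ratio of 2.29 (log2 1.19). This placed it at rank 24 from the top among 11547 measured genes. Trem1, which amplifies inflammatory responses of neutrophils and monocytes through Tyrobp, read 141 on the knockout-labelled array, against 67.5 in wild type by its brighter probe set, a ratio of 2.09 (log2 1.06). The wild-type value lay just above the floor, and the annotation ties this probe set to a sequence outside RefSeq. The second Trem1 probe set, which the annotation ties to a RefSeq transcript, read 29.2 on the knockout-labelled array, against 14.4 in wild type and was under the floor on both, so no ratio is drawn from it.

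The C-type lectin receptors fell into 2 that read higher, 1 at the floor and 1 that was level. Clec4e (Mincle), a receptor for mycobacterial glycolipid and for a nuclear protein released by dying cells, signals through Fcer1g. Its brighter probe set read 614 on the knockout-labelled array, against 349 in wild type (ratio 1.76, log2 0.81). Its second probe set read 262 on the knockout-labelled array, against 106 in wild type (ratio 2.47, log2 1.31). Both Clec4e probe sets thus read higher on the knockout-labelled array. Over 4632 genes, single probe sets had an SD of 0.22 in log2 ratio about the mean of their gene. A difference between 2 probe sets varies more than that, so the gap between the Clec4e probe sets was not read further. Clec4d (also called MCL), the lectin encoded beside Clec4e, read 310 on the knockout-labelled array, against 168 in wild type (ratio 1.85, log2 0.89). Its single probe set is of the _s_at type, which can match related transcripts.

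Clec5a (MDL-1), a partner of Tyrobp on myeloid cells, read 62.5 on the knockout-labelled array, against 26.3 in wild type. The first value lay just above the floor and the second under it, so the ratio is only a bound, at least 1.03-fold higher. Clec7a (Dectin-1), the receptor for fungal beta-glucan, has a single-tyrosine version of the motif in its own tail and needs no adaptor for it. It read 87.1 on the knockout-labelled array, against 89.4 in wild type (log2 -0.04), level on both and close to the floor. Beside probe sets of like brightness (percentiles 5 to 95), the ratios of Trem1 (class range -0.66 to 0.47), Trem3, Clec4d and both Clec4e probe sets lay above their range, and that of Clec7a lay inside it.

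Syk itself differed little by its bright probe sets. Its brightest probe set read 945 on the knockout-labelled array, against 815 in wild type (ratio 1.16, log2 0.21), and the next read 409 on the knockout-labelled array, against 386 in wild type (ratio 1.06, log2 0.08). Another measured probe set pointed the other way, with 112 on the knockout-labelled array, against 168 in wild type, just past 1.5-fold lower (log2 -0.59). That ratio lay inside the range of its brightness class (-0.61 to 0.41), in which 5.68% of probe sets were at least 1.5-fold lower. The remaining probe set was under the floor on both arrays, at 19.5 on the knockout-labelled array, against 16.3 in wild type. The measured Syk probe sets therefore did not share a direction.

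**Figure D2:**
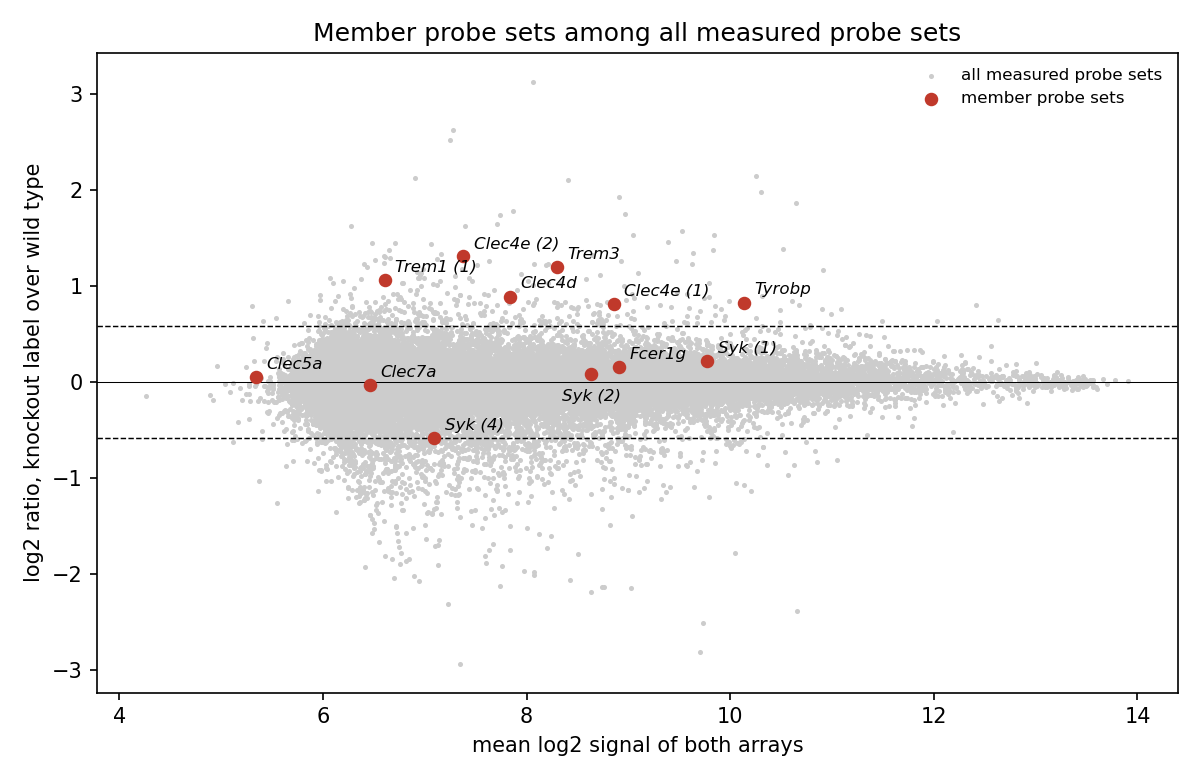
Log2 ratio of the knockout-labelled array over the wild-type array (vertical axis) against the mean log2 signal of both arrays (horizontal axis), with all measured probe sets in grey and the 12 measured member probe sets in red. Dashed lines mark 1.5-fold. Tyrobp, Trem1, Trem3, Clec4d and both Clec4e probe sets lie above the upper line, Fcer1g, Clec5a, Clec7a and 2 Syk probe sets lie between the lines, and another Syk probe set lies just under the lower line.

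Counted by the brightest probe set of each gene, 5 of the 9 members with a probe set read at least 1.5-fold higher on the knockout-labelled array (Tyrobp, Trem1, Trem3, Clec4e and Clec4d) and 0 read at least 1.5-fold lower. Of all 11547 measured genes, 1.71% passed 1.5-fold upward and 2.63% downward. Counted over probe sets, 6 of the 12 measured ones passed it upward and 1, of Syk, downward, beside 1.65% and 4.11% of all 23601 measured probe sets. At 2-fold the members higher were 2, Trem1 and Trem3, beside 0.398% of all measured genes higher and 0.572% lower. A positive log2 ratio was found in 8 of the 9 members and in 50.4% of all measured genes. Among the 8 is Clec5a, which passed the floor on the knockout-labelled array only, so the floor fixed its sign. Of all measured genes, 716 likewise passed the floor on 1 array only. The median log2 ratio was 0.81 over the 9 members, with Clec5a entered at its bound, and 0.0023 over all measured genes. The members were chosen with these values known, so the counts describe them and support nothing further. On the same arrays 11 of 13 measured neutrophil and granulocyte progenitor markers passed 1.5-fold upward and 6 of 14 HSC markers downward, as described further on, and their part in the members' counts was not tested. By role, 1 of 2 adaptors, 2 of 2 Trem receptors, 2 of 4 measured C-type lectins and 0 of 1 kinase genes were past 1.5-fold. By adaptor, 2 of the 3 Tyrobp-coupled receptors and both Fcer1g-coupled receptors were past it, although Fcer1g itself was not. Clec5a, whose ratio is only a bound, was counted as not past 1.5-fold in each of these counts. When Clec4e and Syk were represented by their second brightest measured probe set, a choice made after the values were seen, the count of higher members was again 5.

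Of the 5 members past 1.5-fold, 4 lie in neighbouring pairs on the genome. In GRCm38.p6, Trem1 (chr17:48232713-48246927) and Trem3 (chr17:48247677-48258848) are 749 bases apart. Clec4d (chr6:123262107-123275268) and Clec4e (chr6:123281789-123289871) are 6520 bases apart. Clec12a (chr6:129349783-129365303) and Clec7a (chr6:129461591-129472785) lie elsewhere on chromosome 6, 96287 bases from each other. The other protein-coding genes within 150 kb of each pair, a distance chosen after the values were seen, were also read. Around Trem1 and Trem3, 4 of 8 such genes were measured, with log2 ratios from -0.26 in Treml2 to 0.12 in Nfya, all under 1.5-fold. B430306N03Rik (-0.07) and Treml1 (0.09) lay between, and Trem2 was under the floor on both arrays. Around Clec4d and Clec4e, 1 of 5 was measured, the inhibitory lectin Clec4a2, which read 71.5 on the knockout-labelled array, against 68.7 in wild type (log2 0.06). Clec4n, the lectin Dectin-2, was under the floor on both (39.2 on the knockout-labelled array, against 33.5 in wild type). Around Clec12a and Clec7a, 3 of 12 were measured, with Cd69 at 0.60, Gabarapl1 at -0.11 and Clec1a at least 1.09-fold lower.

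The other genes of the route were described with 5 lists. Each is read beside all measured genes, of which 1.71% were at least 1.5-fold higher, 2.63% lower and 50.4% had a positive log2 ratio. The first held other ITAM chains, Fc receptors, receptors that couple to Tyrobp or Fcer1g (Cd300lb, Pilrb1 and Gp6 among those measured) and the related adaptor Hcst. Of its 20 genes, 11 were measured, 3 were at least 1.5-fold higher and 0 lower, all 11 had a positive ratio by their brightest probe set, and the median was 0.45. Fcer1a, the ligand-binding chain of the IgE receptor that Fcer1g serves, read 249 on the knockout-labelled array, against 109.99 in wild type (log2 1.18). Fcgr2b, the inhibitory IgG receptor, read 645 on the knockout-labelled array, against 396 in wild type (0.70, with its 3 other measured probe sets from 0.62 to 0.66). Cd300lb, a Tyrobp-coupled receptor, had a log2 ratio of 0.61, with a wild-type signal of 64.5 close to the floor. The B cell receptor chain Cd79a was at least 1.45-fold higher. It passed the floor on the knockout-labelled array only, so the floor fixed its sign among the 11 positive ratios. The smallest ratios of the list were those of Cd79b (0.15), Fcgr3 (0.21), Pilrb1 (0.27) and Fcgr1 (0.33, with its other measured probe set level at -0.00067). On neither array did the T cell chains Cd3d, Cd3e, Cd3g and Cd247 pass the floor (these were chosen for mention after their values were seen). Among measured genes, Fcer1a, Ms4a2, Cd79a, Cd79b, Fcgr1 and Gp6 of this list also stand in the cell type marker lists further on. So do Treml1 and Blnk of the lists below, so pathway and marker lists are not separate observations.

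Other Trem family and C-type lectin genes were mostly near level. Of 27 listed, 12 were measured, 2 were at least 1.5-fold higher and 0 lower, and the median was 0.08. Clec2i, a ligand-type lectin of the natural killer gene complex, read 363 on the knockout-labelled array, against 63.5 in wild type (log2 2.52), and its other measured probe set gave 0.70. The ratio of 2.52 was the highest of all measured genes, with a wild-type signal close to the floor. Cd69, an early activation marker, had a log2 ratio of 0.60, the growth factor gene Clec11a 0.53 and Klrb1f 0.38. The lowest were Mrc1, the mannose receptor (at least 1.29-fold lower), Treml2 (-0.26, with its other probe sets at -0.13 and -0.08), Clec1a (at least 1.09-fold lower) and Clec2d (-0.11).

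The kinases and effectors around Syk were mostly near level. Of 14 Src and Tec family kinases and Syk relatives, 7 were measured and 0 reached 1.5-fold in either direction, with a median log2 ratio of 0.15. The Tec family kinases Btk, which acts below Syk, and Tec had the highest values. Btk read 1714 on the knockout-labelled array, against 1169 in wild type (0.55), and Tec had a log2 ratio of 0.42. Zap70, the Syk relative of T cells, followed at 0.15 and Src at 0.15 (-0.06 on its other measured probe set), while Fyn had -0.06, Fgr -0.20 and Yes1 was at least 1.14-fold lower.

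Of 27 adaptors and effectors that act below Syk, 24 were measured, 2 were at least 1.5-fold higher, 0 lower, and the median was 0.07. The adaptor Blnk, which links Syk to phospholipase C in B cells, read 171 on the knockout-labelled array, against 93.8 in wild type (log2 0.87). Lat2, a membrane adaptor of myeloid, mast and B cells, read 511 on the knockout-labelled array, against 296 in wild type (0.79), but its second measured probe set gave -0.06. Gab2 (0.44) and Prkcb (0.43) came next. The lowest were the transcription factor Nfatc2 (-0.40), Sos1 (-0.27), Pik3r1 (-0.13) and Nfatc1 (-0.13), and other probe sets of Sos1 (0.11) and Nfatc1 (0.18 to 0.25) pointed the other way.

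Inhibitors of ITAM signalling had 15 of 19 genes measured, 0 past 1.5-fold in either direction and a median of 0.03. The inhibitory receptor Cd22 (0.50), the adaptor Dok3 (0.40), the phosphatase Inpp5b (0.31) and the receptor Sirpa (0.20) had the highest ratios of the list. Inpp5b is a relative of the inhibitory phosphatase Inpp5d and is not itself known as an inhibitor of this route. Inpp5d, chosen for mention after its values were seen, had 0.09, with its other measured probe set at 0.34. Ubash3b (-0.22), Dok2 (-0.22), the phosphatase Ptpn11 (-0.05) and the ubiquitin ligase Cblb (-0.05) had the lowest. The other probe sets of Ptpn11 gave 0.32 and 0.50, and those of Cblb ran from -0.59 to 0.17.

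**Figure D3:**
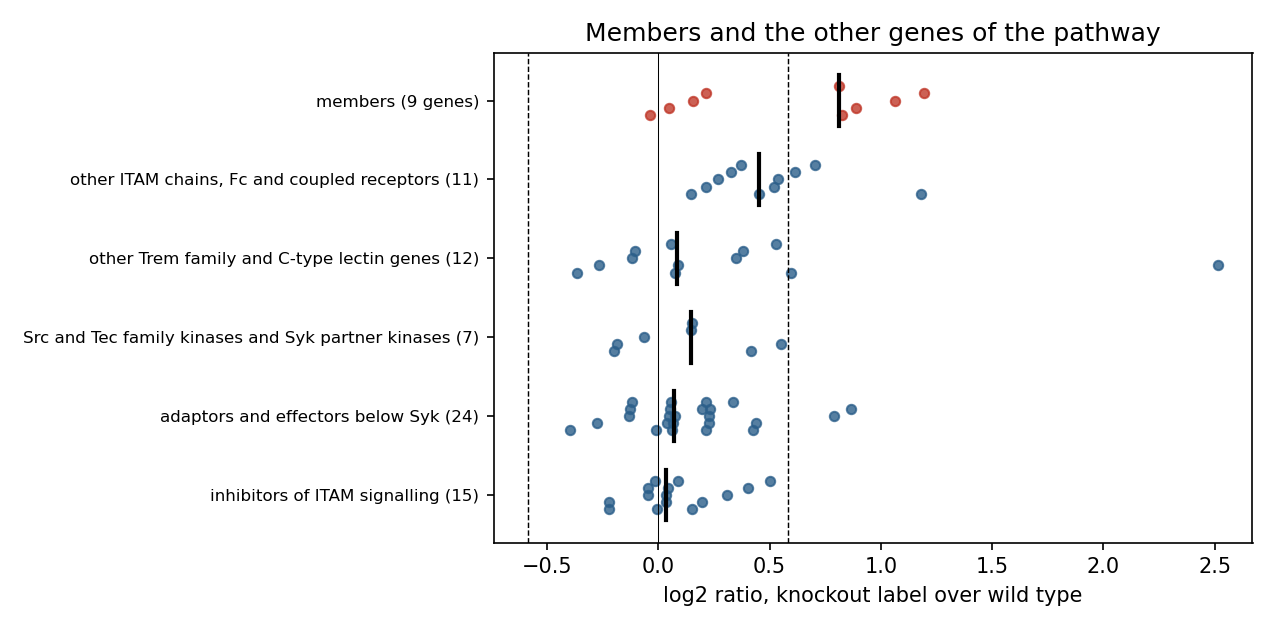
Log2 ratio of the knockout-labelled array over the wild-type array for each measured gene (1 point per gene, by its brightest probe set) of the members and of the 5 lists of other genes of the route, with the number of measured genes in brackets, the median as a black bar and 1.5-fold as dashed lines. The members' median is 0.81, that of the other ITAM chains, Fc receptors and coupled receptors 0.45, and those of the other 4 lists lie between 0.03 and 0.15.

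Cell type markers also differed between the arrays, counted as higher or lower from 1.5-fold. Of all measured genes, 1.71% were higher and 2.63% lower by that size. In RNA of a whole sample, more cells of a type and more RNA per cell cannot be told apart. Neutrophil and granulocyte progenitor markers had 13 of 16 genes measured, of which 11 passed 1.5-fold upward on the knockout-labelled array and 0 downward (median 0.76). Their summed signal was 36513 on the knockout-labelled array, against 22853 in wild type. Lcn2 (log2 1.26) and Ms4a3 (1.17) were highest, and Elane (0.56) and Prtn3 (0.37) lowest. Basophil and mast cell markers had 3 of 6 measured genes higher and 1 lower (median 0.61, summed signal 2368 on the knockout-labelled array, against 1471 in wild type). Fcer1a (1.18) and Mcpt8 (1.14) were highest, and Ms4a2 (0.37) and the mast cell protease Cma1 (-0.89) lowest, so this list did not share a direction. Monocyte and macrophage markers had 2 of 13 higher and 0 lower (median 0.26, summed signal 5466 on the knockout-labelled array, against 4222.5 in wild type), led by F13a1 (1.57) and Ms4a6c (0.63), with C1qc lowest (-0.38). HSC markers had 0 of 14 higher and 6 lower (median -0.42, summed signal 12010 on the knockout-labelled array, against 14540 in wild type), from Fhl1, at least 2.98-fold lower, to Flt3 at 0.19. The HSC list was not limited to genes particular to HSC, since Flt3 is a marker of multipotent progenitors. The part of these cell types in the members' ratios was not tested.

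The remaining marker lists rested on few measured genes. B cell markers had 3 of 6 measured genes past 1.5-fold upward and 0 downward (median 0.70), led by Vpreb1 (1.78) and Igll1 (1.62). Dendritic cell markers had 5 of 11 genes measured, with 0 higher and 2 lower (median -0.45). The 2 lower were H2-Aa (-1.06) and Cd74 (-0.81), both genes of MHC class II presentation. Siglech, Xcr1, Zbtb46, Ciita and Ccr7 passed the floor on neither array (chosen for mention after their values were seen). Of the NK cell markers 2 of 9 were measured (Nkg7 0.20, Prf1 -0.10), with 6 under the floor on both arrays. Of the T cell markers 1 of 8 was measured, Cd8a at 0.22. Erythroid markers had 0 of 5 measured genes higher and 1 lower, Car1 (-1.96). Megakaryocyte and platelet markers had 1 of 6 higher and 2 lower, among them Itga2b (0.88) and Vwf (-0.87).

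**Figure D4:**
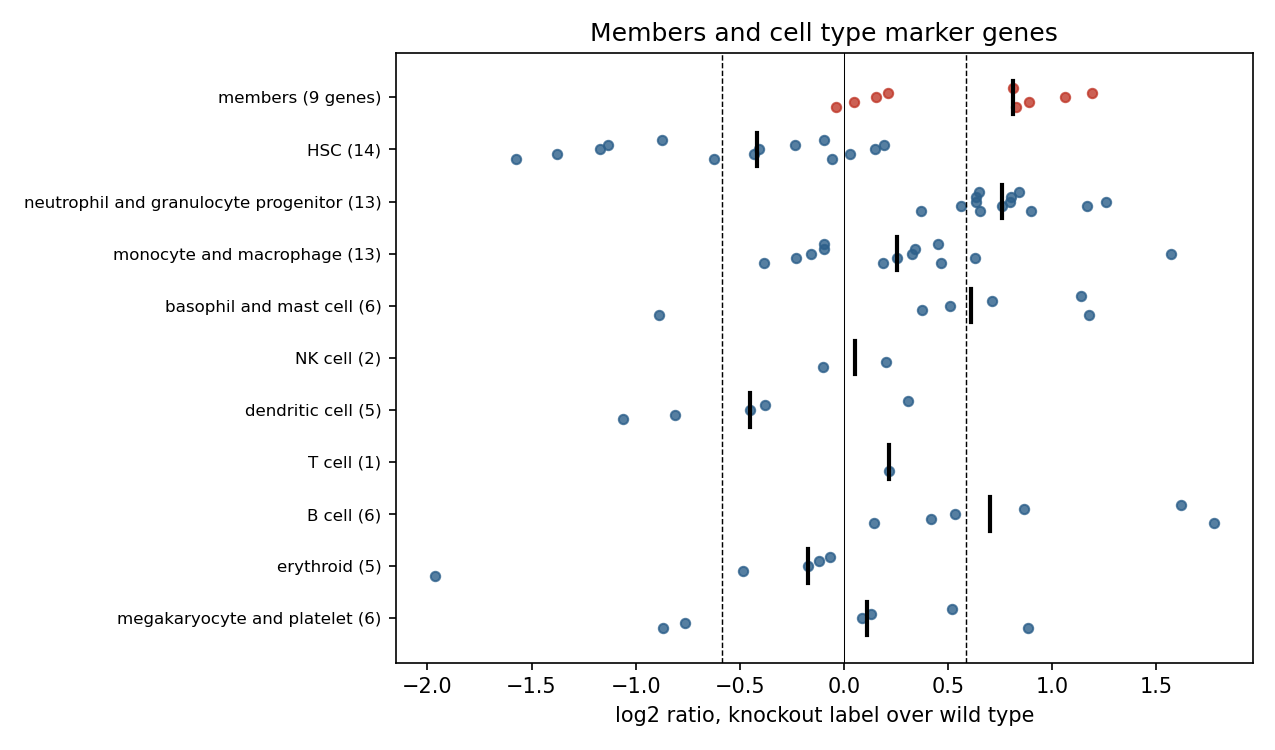
Log2 ratio of the knockout-labelled array over the wild-type array for each measured gene (1 point per gene) of the members and of 10 lists of cell type markers, with the number of measured genes in brackets, the median as a black bar and 1.5-fold as dashed lines. Median ratios are 0.81 for the members, 0.76 for neutrophil and granulocyte progenitor markers, 0.61 for basophil and mast cell markers and -0.42 for HSC markers. Some of the marker genes also stand in the lists of other genes of the route.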

How the data were processed

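Total RNA of 2 HSC samples was hybridised to Affymetrix arrays, 1 per genotype. The deposited table holds linear signal intensities, which the authors made with MAS5 per the submitters' processing notes. No version, scaling target or present calls are stated there. The log2 of the deposited signal was used without further scaling, since medians and trimmed means (without the lowest and highest 2%, 217 on the knockout-labelled array, against 218 in wild type) were alike. Of 45037 probe sets, 34945 named 1 gene in the platform annotation, 932 several and 9160 none. Of the 34945, 34741 matched a RefSeq record by Entrez identifier.

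A probe set was measured when above the floor (log2 5.92) on at least 1 array. A gene was represented by its brightest probe set, by mean log2 signal over both arrays. Ratios are the knockout-labelled array over wild type, and "at least" marks a value raised to the floor. A difference was counted from 1.5-fold. The members, lists, floor and named genes were chosen with earlier results of these data known. The text names each member, Sirt6, the 4 highest and 4 lowest genes of each pathway list, and at most the 2 highest and 2 lowest of each marker list. Genes within 150 kb and those marked as such were chosen after seeing values. The number of arrays limits the precision. The procedure was run on simulated data with changes planted only in genes well above the floor and equal noise at every brightness. That run does not bear on members near the floor or on ratios close to 1.5-fold. Computation used pandas 2.3.3 and numpy 2.4.6 under Python 3.11.15, statsmodels 0.14.6 for loess (span 0.3), and matplotlib 3.10.9. Alternatives covered scaling, floor, probe set choice and size.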

Additional observations from a re-analysis of the deposited data

How the results depend on the processing

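No paired analysis was possible because each genotype had 1 array. The members at least 1.5-fold higher numbered 5 of 9 measured. They numbered 6 of 9 with the floor at percentile 25 or no floor and 4 of 8 measured without _x_at or _s_at probe sets. They numbered 3 of 6 measured with the floor at percentile 75 and 2 of 9 at a size of 2-fold. No alternative gave a member at least 1.5-fold lower. The members' median log2 ratio of 0.81 became 0.51 when the probe set types _x_at and _s_at, Clec4d among them, were dropped. Single members moved by more than 0.22: Clec4d to 0.38 with the floor at percentile 75, Clec4e to 1.06 with the median of its probe sets, Trem1 to 0.66 with a pseudocount of 1 floor, and Clec5a to 1.25 with the floor at percentile 25 or no floor and to 0.50 with that pseudocount. Of the listed genes at least 1.5-fold higher, the ITAM chains, Fc receptors and coupled receptors numbered 1 at 2-fold and 1 with the floor at percentile 75, the other Trem and C-type lectin genes 1 in each of these and with the pseudocount, and the effectors below Syk 0 at 2-fold, 1 with the floor at percentile 75 and 1 with the median of probe sets. With the floor at percentile 75 the medians of the list of ITAM chains and coupled receptors and of the kinases were 0.21 and 0.42. Genes at least 1.5-fold lower numbered 1 among the kinases and 2 among the other Trem and lectin genes with the floor at percentile 25, and 1 and 3 with no floor. Over all genes, those higher and lower numbered 46 and 66 at 2-fold, 461 and 462 with the floor at percentile 25, 83 and 93 with it at percentile 75, 987 and 693 with no floor, and 113 and 161 with the pseudocount. The cause was not tested. Of all comparisons with an alternative, 259 stayed within the stated spread or 1.5 times the count, and 33 moved. Signals near the floor limit Trem1, Clec5a and Clec7a.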
